A study of Mus musculus with 14 samples.

Results

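The insulin-like growth factor (IGF) system of nestin+ bone marrow stromal cells (BMSCs) was described through 9 genes. They are the ligands Igf1 and Igf2, the receptor Igf1r and the binding proteins Igfbp2, Igfbp3, Igfbp4, Igfbp5, Igfbp6 and Igfbp7. They were chosen by name, with earlier results of these data known, as 9 of the 27099 gene rows of the count table. RNA had been sequenced from GFP+ BMSCs of mice with a Nes-GFP reporter, in which regulatory elements of the nestin gene drive GFP. The cells were sorted into populations with high and low GFP. The study set out to compare leukemic with normal mice in each population, and high with low cells in each kind of mouse.

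The leukemic mice (AML) were primary iMLL-AF9 mice, which carry the transactivator rtTA in the ROSA26 locus and the human MLL-AF9 fusion oncogene behind a tetracycline-response element. They were given doxycycline and were killed once their white blood cell count was high. The normal mice received sucrose water as vehicle and had no induced oncogene. AML, the transgenes and doxycycline therefore cannot be told apart. AML mice gave 2 Nes-GFP high and 4 Nes-GFP low libraries, and normal mice gave 2 Nes-GFP high and 6 Nes-GFP low libraries. All groups were sorted as GFP+ CD45- CD31- DAPI- cells after red cell lysis, and the study's methods add Ter119-. Some libraries came from pooled mice, without a statement of which, so p-values measure the spread between these libraries, part of which may be technical. Because of the low cell yield, libraries were made with Smart-seq2, a protocol that amplifies full-length cDNA of polyadenylated RNA.

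IGF1 and IGF2 are secreted peptides related to insulin. They bind IGF1R, a receptor tyrosine kinase that signals through IRS adaptors, PI3 kinase and AKT to growth and survival. The IGF binding proteins hold the ligands in the extracellular space, lengthen their life and control their access to the receptor, and proteases such as PAPP-A release the ligands again. IGFBP7 is the exception in the family, since it binds IGFs weakly. In bone, osteoblasts and marrow stromal cells are known sources of IGF1 and of IGFBP4 and IGFBP5.

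The libraries held 5615941 to 11436652 counts. Levels are given as CPM, counts scaled to library size after TMM normalization. Nes itself was found at 32.3 and 26.7 CPM in AML high replicates 1 and 2 and at 2.27 and 36.0 CPM in normal high replicates 1 and 2, against 0 to 5.70 CPM in the 10 low libraries. Normal high replicate 1 thus lay within the range of the low libraries for the gene behind the reporter, and it also had the fewest genes with a count (14842, against 18177 to 20197 in the other libraries). The content of stromal RNA differed widely. The summed level of 9 markers of CXCL12-abundant reticular (CAR) stromal cells ran from 394 CPM in AML low replicate 3 to 52286 CPM in normal low replicate 1. All 9 had counts in each library except normal high replicate 1, where 8 had. The summed level of 8 neutrophil markers ran from 551 CPM (normal low replicate 2) to 78617 CPM (normal low replicate 3), although CD45+ cells had been sorted out. In bulk RNA, fewer cells of a type and less RNA per cell cannot be told apart. Endothelial markers summed to 51.6 CPM at most. Emcn was at 0 in both AML high libraries, and also in 3 AML low, 1 normal high and 4 normal low libraries. C1qa of macrophages was at 0 in all 4 high libraries, and also in 3 AML low and 4 normal low libraries. The 7 macrophage and monocyte markers together summed to 8.89 to 78.8 CPM in AML high and to 33.9 to 96.0 CPM in normal high libraries.

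The 2 ligands differed in where they were found. Igf1 (ENSMUSG00000020053, chromosome 10 of GRCm38, 87858265 to 87937042, plus strand) encodes the main postnatal ligand. It stood at 60.6 and 504 CPM in AML high replicates 1 and 2, and at 1.39 and 261 CPM in normal high replicates 1 and 2. In the AML low libraries it was 32.3, 66.0, 18.2 and 97.8 CPM (replicates 1 to 4), and the normal low libraries ran from 27.2 to 286 CPM with a median of 49.4 CPM. Each range overlapped the others, and the high group means rested on 1 library each. Normal high replicate 1 was the lowest of all 14 libraries, and the highest values were in AML high replicate 2, normal high replicate 2 and normal low replicates 1 and 2.

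Igf2 (ENSMUSG00000048583, chromosome 7, 142650766 to 142666816, minus strand) encodes the mainly fetal ligand and is an imprinted gene. It was found at 117 and 45.2 CPM in the AML high libraries and at 48.9, 21.5, 10.7 and 37.5 CPM in AML low replicates 1 to 4. In the normal high libraries it was 16.0 and 24.4 CPM. In the 6 normal low libraries it ran from 0.303 to 15.3 CPM, with a median of 2.55 CPM. Both AML high libraries lay above both normal high libraries. In the low population, AML replicates 1, 2 and 4 lay above every normal library, and AML replicate 3 lay within the normal range. Normal low replicates 3, 5 and 6 were at 0.41, 0.468 and 0.303 CPM, from 4, 5 and 3 counts. Reads of Igf2 may include those of Gm49394, which shares 3596 exon bases on the same strand and has no row in the table, and of the antisense gene Igf2os, which shares 98. Whether the counting used strand is not given in the sources used here.

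Igf1r (ENSMUSG00000005533, chromosome 7, 67952827 to 68233668, plus strand) encodes the receptor. Its level was 50.5 and 13.4 CPM in the AML high libraries and 22.1, 19.2, 13.7 and 13.9 CPM in AML low replicates 1 to 4. The normal low libraries ran from 5.06 to 60.8 CPM, with a median of 33.8 CPM. The normal high libraries held the lowest and the highest value of the 14. Replicate 1 had no count and replicate 2 stood at 80.0 CPM, so this group alone spanned the whole range.

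The binding proteins were the more abundant side of the system. Among them, Igfbp4 and Igfbp5 moved together over the libraries, whereas Igfbp6 stood high in other libraries than these. The 250 bases before the RefSeq start of Igfbp4, Igfbp5, Igfbp7 and Igfbp6 (GRCm38.p6, each printed 5′ to 3′ on the gene's strand) are shown because their transcripts make up most of the binding protein RNA and because their levels could be set side by side. Capitals mark 2 motifs, searched on both strands. The TATA box was searched as the letters TATAAA, which 12.4% of 32851 RefSeq promoter windows of this length held. The GC box was searched as the letters GGGCGG, which 32.7% of the windows held. The intervals are chr11:99040994-99041243 for Igfbp4, chr1:72874866-72875115 for Igfbp5, chr5:77408046-77408295 for Igfbp7 and chr15:102143936-102144185 for Igfbp6.
Igfbp4: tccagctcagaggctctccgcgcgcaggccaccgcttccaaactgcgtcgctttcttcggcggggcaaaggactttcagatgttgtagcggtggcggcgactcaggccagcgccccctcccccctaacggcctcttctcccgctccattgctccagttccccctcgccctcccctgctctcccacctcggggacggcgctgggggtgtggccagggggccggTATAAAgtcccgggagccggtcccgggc
Igfbp5: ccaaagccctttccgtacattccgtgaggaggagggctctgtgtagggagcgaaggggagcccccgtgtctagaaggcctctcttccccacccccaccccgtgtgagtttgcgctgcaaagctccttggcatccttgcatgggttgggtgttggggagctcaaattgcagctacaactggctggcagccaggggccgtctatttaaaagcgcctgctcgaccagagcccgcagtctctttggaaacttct
Igfbp7: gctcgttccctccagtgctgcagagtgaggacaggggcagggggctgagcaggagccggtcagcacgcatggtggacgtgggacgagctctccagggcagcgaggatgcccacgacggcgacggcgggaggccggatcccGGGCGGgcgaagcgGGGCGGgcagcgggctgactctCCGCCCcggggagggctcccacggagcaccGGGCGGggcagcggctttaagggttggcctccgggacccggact
Igfbp6: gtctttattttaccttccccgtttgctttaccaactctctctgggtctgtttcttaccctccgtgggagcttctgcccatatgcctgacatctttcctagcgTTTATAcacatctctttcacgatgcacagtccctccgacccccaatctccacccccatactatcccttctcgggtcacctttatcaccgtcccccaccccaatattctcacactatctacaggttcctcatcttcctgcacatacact
Igfbp4 had 1 TATAAA match, 28 bases before its start. Igfbp6 had 1, on the opposite strand and 148 bases before its start. Igfbp7 had 4 GGGCGG matches, at 110, 96, 74 and 44 bases before its start, and Igfbp5 had no match to either. These exact letters thus differed between Igfbp4 and Igfbp5, whose levels moved together. Variants of the letters were not searched, so no match does not show that a motif is absent. The matches describe the sequence only.

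Igfbp4 (ENSMUSG00000017493, chromosome 11, 99041244 to 99054392, plus strand) encodes an inhibitory binding protein that PAPP-A cleaves. It stood at 209 and 4565 CPM in AML high replicates 1 and 2, and at 1004 and 4582 CPM in normal high replicates 1 and 2. In AML low replicates 1 to 4 it was 2401, 194, 98.9 and 1261 CPM. The normal low libraries ran from 458 to 5686 CPM, with a median of 1010 CPM. The ranges of the 4 groups overlapped.

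Igfbp5 (ENSMUSG00000026185, chromosome 1, 72857932 to 72874884, minus strand) encodes a binding protein that attaches to bone matrix. Its level was 131 and 2062 CPM in the AML high libraries and 208 and 5026 CPM in the normal high libraries. It was 2745, 168, 21.4 and 717 CPM in AML low replicates 1 to 4, and 131 to 4523 CPM in the normal low libraries, with a median of 711 CPM. The libraries with much Igfbp4 were those with much Igfbp5.

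Igfbp7 (ENSMUSG00000036256, chromosome 5, 77349240 to 77408041, minus strand) varied least in CPM. It stood at 1821 and 4769 CPM in the AML high libraries, at 1322 and 4059 CPM in the normal high libraries, and at 2063, 811, 191 and 1379 CPM in AML low replicates 1 to 4. The normal low libraries ran from 463 to 3275 CPM, with a median of 1316 CPM. The ranges of the 4 groups overlapped. The gene shares 85 exon bases with Polr2b on the opposite strand.

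Igfbp3 (ENSMUSG00000020427, chromosome 11, 7206086 to 7213923, minus strand) encodes the main carrier of IGFs in blood. Its level was 132 and 212 CPM in the AML high and 114 and 383 CPM in the normal high libraries. AML low replicates 1 to 4 had 31.6, 172, 13.1 and 44.0 CPM, and the normal low libraries ran from 19.7 to 411 CPM with a median of 71.2 CPM. The highest value was in a low library.

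Igfbp6 (ENSMUSG00000023046, chromosome 15, 102144362 to 102149511, plus strand) encodes a binding protein that prefers IGF2. It stood at 18.1 and 44.3 CPM in the AML high libraries and at 128 and 7.09 CPM in normal high replicates 1 and 2. It was 11.3, 102, 30.1 and 280 CPM in AML low replicates 1 to 4. The normal low libraries ran from 4.93 to 597 CPM, with a median of 35.5 CPM. The lowest values were in normal low replicate 1 and normal high replicate 2, which were among the libraries richest in Igfbp4, and the highest were in normal low replicates 4 and 3 (597 and 393 CPM). In those 2 libraries the neutrophil markers summed to 43621 and 78617 CPM and the fibroblast markers to 5940 and 4335 CPM. AML low replicate 3 had 67167 CPM of neutrophil and 760 CPM of fibroblast markers, with Igfbp6 at 30.1 CPM. AML low replicate 4 had 5951 CPM of neutrophil and 3429 CPM of fibroblast markers, with Igfbp6 at 280 CPM. The part of these cells in the Igfbp6 level was not tested.

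Igfbp2 (ENSMUSG00000039323, chromosome 1, 72824503 to 72852474, plus strand) encodes a binding protein abundant in the fetus and lies 5457 bases from Igfbp5. It was the only binding protein near or at 0 in most libraries. The AML high libraries had 13.5 and 14.02 CPM, from 109 and 134 counts. The normal high libraries had 0 and 1 count (0 and 0.142 CPM), AML low replicates 1 to 4 had 7, 0, 1 and 1 counts (0.722 CPM at most), and 5 of the 6 normal low libraries had 0 to 2 counts. Normal low replicate 2 stood apart with 84 counts (7.94 CPM). Both AML high libraries lay above all 12 others. Summed over the high libraries and scaled to their totals, the ratio of AML to normal was 209 (exact 95% interval for counting error only, 37.2 to 8301).

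**Figure D1:**
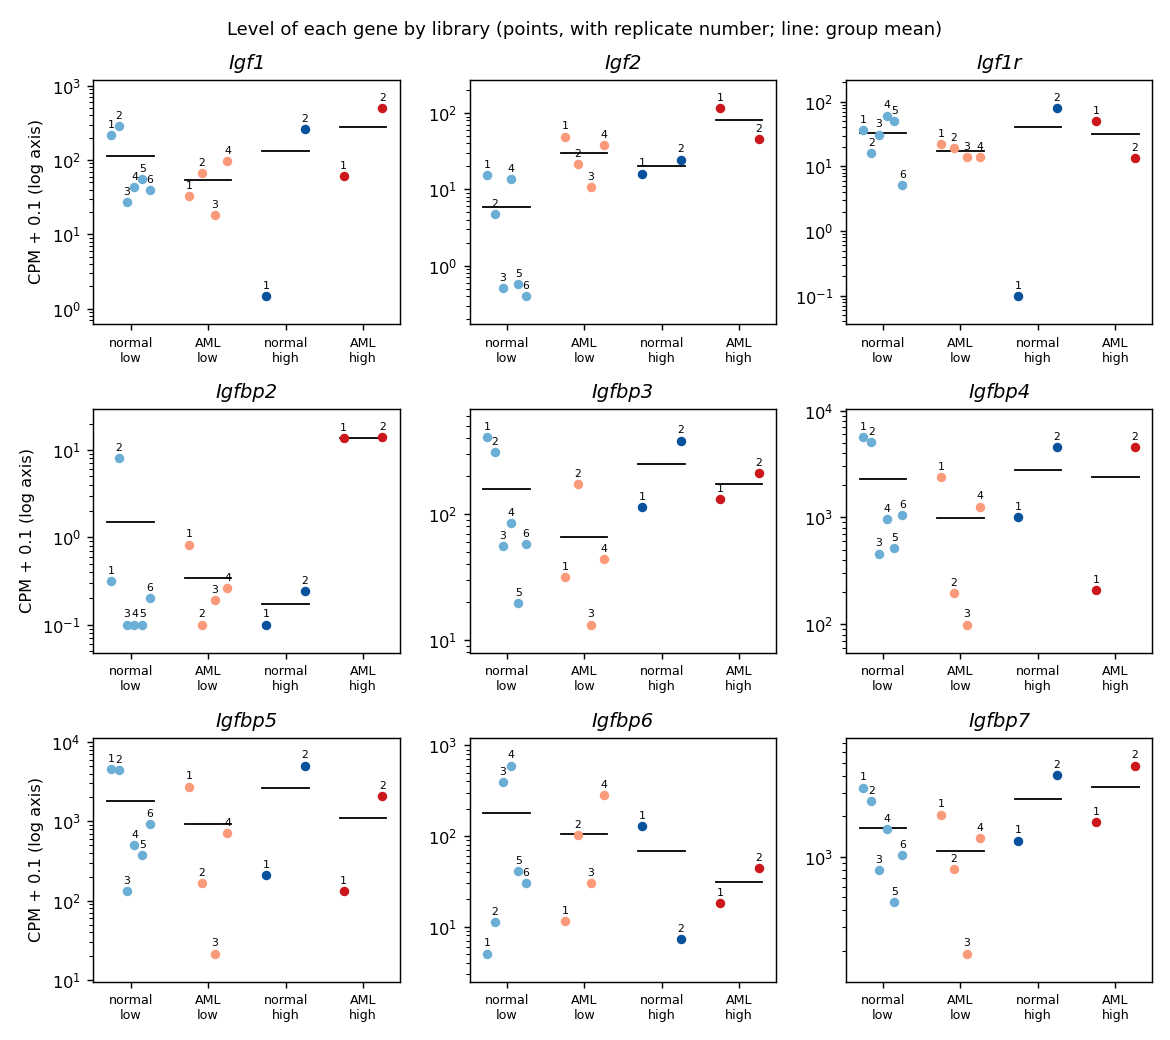
Level of each of the 9 genes in the 14 libraries by group (x axis) on a log axis of CPM + 0.1; points carry the replicate number and lines mark group means. The 2 AML high libraries lie above the others for Igfbp2 (13.5 and 14.02 CPM), whereas for Igfbp4 and Igfbp5 the ranges of the 4 groups overlap.

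The members' levels were set beside each other per kilobase of exon. Igfbp7 led in each of the 14 libraries on this scale. Its group mean ± SD was 2726 ± 1724 CPM per kb in AML high (n = 2), 919 ± 661 in AML low (n = 4), 2225 ± 1601 in normal high (n = 2) and 1348 ± 911 in normal low (n = 6). Igfbp4 and Igfbp5 followed in the means of all 4 groups, with 519 ± 546 and 301 ± 346 CPM per kb in normal low (n = 6). In the high groups, the range of Igfbp7 lay wholly above that of Igfbp4, and in the low groups these ranges overlapped although Igfbp7 exceeded Igfbp4 in every library. Igfbp4 and Igfbp5 overlapped in every group, as did all neighbours from the second to the sixth place. By library, Igfbp6 took the second place in AML low replicates 2 and 3 and in normal low replicates 3 and 4, and Igfbp4 did in the other 10. Igf2, Igf1r and Igfbp2 took the last 3 places in every group. Igf2 averaged 14.1 ± 8.82 CPM per kb in AML high (n = 2) and 1.01 ± 1.21 CPM per kb in normal low (n = 6), where it stood below Igf1r (1.98 ± 1.24 CPM per kb, n = 6), and the ranges of these neighbours overlapped in normal low.

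Of the binding protein transcripts, counted per kb, Igfbp7 made up 51.9% (normal low replicate 2) to 91.8% (AML high replicate 1). The group means were 82.2% ± 13.6 (SD, n = 2) in AML high, 68.6% ± 6.78 (SD, n = 4) in AML low, 67.6% ± 7.03 (SD, n = 2) in normal high and 59.0% ± 5.21 (SD, n = 6) in normal low. The AML low range (62.6% to 75.4%) and the normal low range (51.9% to 66.0%) overlapped. Without division by exon length, these means were 59.6%, 44.0%, 38.2% and 32.8%, in the same order of groups. Igfbp4 made up 2.89% to 27.6%, and Igfbp5 made up 1.33% to 17.7%. Igfbp6 ranged from 0.0907% in normal low replicate 1 to 30.5% in normal low replicate 3. Its share exceeded 10% in 5 libraries, namely AML low replicates 2, 3 and 4 and normal low replicates 3 and 4, all of them of the low population.

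**Figure D2:**
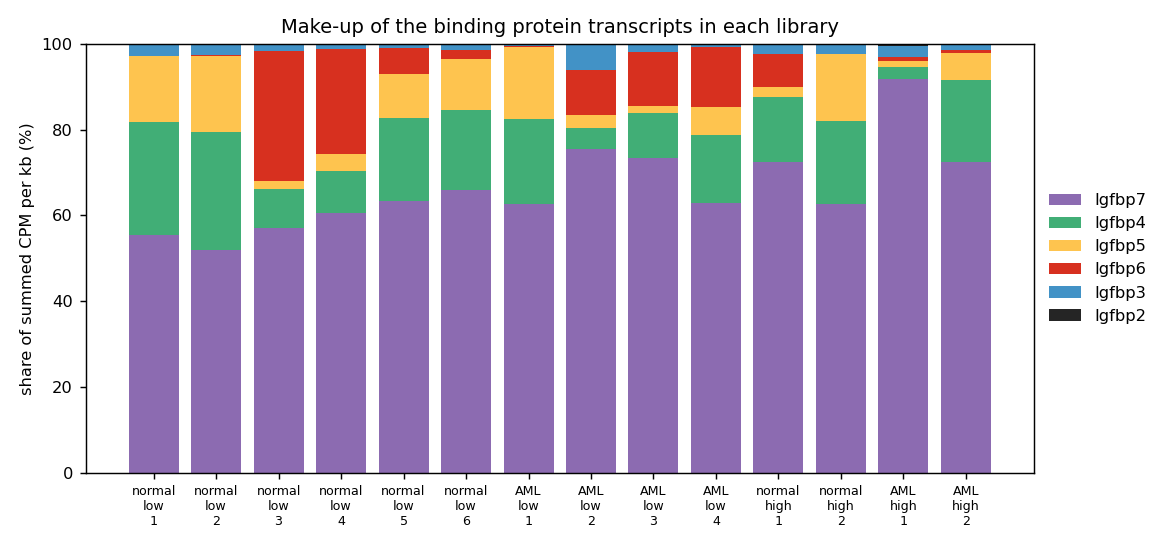
Share of each binding protein (y axis, percent of the summed CPM per kb of the 6 binding proteins) in each library (x axis). Igfbp7 makes up 51.9% to 91.8% of every bar, and Igfbp6 reaches 30.5% in normal low replicate 3 but 0.0907% in normal low replicate 1.

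The sum of the 6 binding proteins per kb stood far above that of the 2 ligands. The ratio was 58.1 to 513, with a median of 157. Its size depends on the division by exon length, which is 1.209 kb for Igfbp7 and 9.904 kb for Igf1. Igfbp7, which binds IGFs weakly, made up 51.9% to 91.8% of the binding protein sum. The ratio was 62.0 and 92.5 in the AML high libraries, 175 and 513 in the normal high ones, 58.1 to 231 in AML low and 106 to 412 in normal low. The highest ratio was in normal high replicate 1, where Igf1 was at its lowest. The AML and normal ranges did not overlap in the high population, where the levels of 27.5% of all genes did not either, and overlapped in the low population. This difference in the ratio was not tested. Within the ligands, Igf2 exceeded Igf1 in CPM per kb in normal high replicate 1 (19.98 times), AML high replicate 1 (3.33 times), AML low replicate 1 (2.62 times) and, barely, AML low replicate 3 (1.02 times), and it was lower in the other 10 libraries.

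Igfbp4 and Igfbp5 followed the stromal markers. Igfbp4 spanned 57.5-fold over the 14 libraries in CPM, but as a percentage of the summed CAR markers it spanned 2.97-fold (8.87% to 26.4%, median 13.0%). For Igfbp5 the spans were 234-fold and 6.19-fold (2.59% to 16.0%, median 8.18%). The summed markers consist mainly of Cxcl12, a chemokine that retains blood stem cells (70.5% to 85.4% of the sum). Igfbp7 spanned 24.9-fold in CPM and still 18.95-fold relative to the markers. For Igfbp3, Igfbp6 and Igf2 the span relative to the markers was wider than in CPM, with 60.4-fold against 31.3-fold, 1439-fold against 121-fold and 2411-fold against 384-fold.

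On the scale of log2(CPM + 1), the Pearson r with the summed CAR markers over 14 libraries was 0.98 for Igfbp4 (Spearman's rho 0.97) and 0.96 for Igfbp5 (rho 0.94). It was 0.97 and 0.93 without the 2 libraries farthest from the median of the markers, and 0.99 and 0.98 within the 6 normal low libraries. For Igfbp7, r was 0.87 (rho 0.80), and without those 2 libraries it was 0.77. Igfbp6 ran the other way, with r = -0.45 (rho -0.55) and -0.78 within normal low libraries. Its r was 0.72 (rho 0.71) with Ptprc, which encodes the CD45 antigen of blood cells, 0.69 (rho 0.75) with the summed neutrophil markers and 0.60 (rho 0.45) with the summed fibroblast markers, and within normal low libraries these were 0.91, 0.94 and 0.74. Igf2 and Igf1r had r of 0.07 and 0.04 with the CAR markers over all libraries, and of 0.61 and -0.30 within normal low libraries. These values describe the libraries, whose levels share 1 total each, so that an abundant cell type lowers the CPM of all others.

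**Figure D3:**
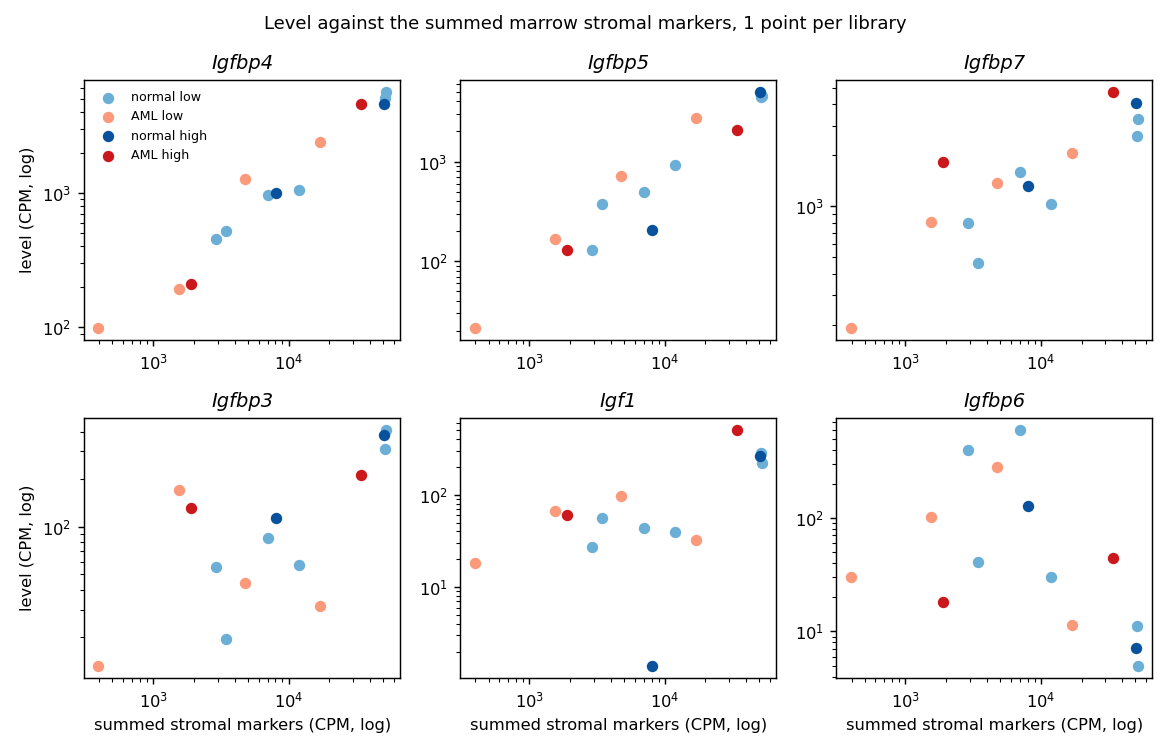
Level of 6 of the genes (y axis, CPM, log) against the summed CPM of 9 marrow stromal markers (x axis, log), 1 point per library coloured by group. Igfbp4 and Igfbp5 lie along a line, with Igfbp4 at 8.87% to 26.4% of the summed markers, and Igfbp6 does not.

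Between the members, the highest r was that of Igfbp4 and Igfbp5 (0.95, rho 0.95; 0.93 without the 2 libraries farthest from the median of Igfbp5). Per kb, Igfbp4 exceeded Igfbp5 in each of the 14 libraries, by 1.19 to 6.57 times with a median of 2.03. Igfbp7 had an r of 0.84 with Igfbp4, 0.83 with Igfbp5 and 0.80 with Igfbp3. Igfbp6 had a negative r with each of the other members, from -0.17 (Igf1r) to -0.50 (Igfbp5). Its r with Igf1r was 0.37 within normal low libraries. With Igf2 it was 0.02 without the 2 libraries farthest from the median of Igfbp6. With the remaining members r stayed negative in both checks. Igfbp2 and its neighbour on the chromosome Igfbp5 had an r of 0.22 (rho 0.46). Within the 6 normal low libraries their r was 0.63, with no count of Igfbp2 in 3 of these libraries. Igf1 and Igf2 had an r of 0.18.

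**Figure D4:**
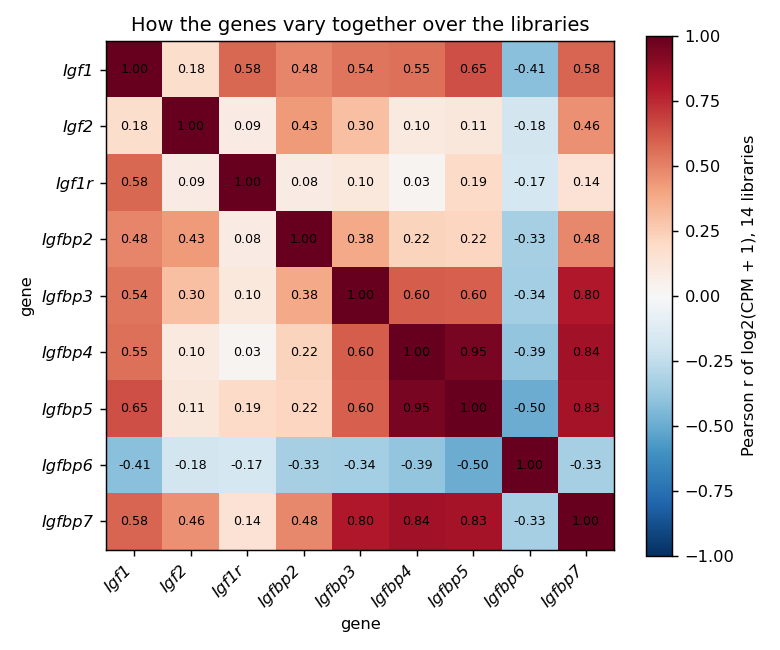
Pearson r of log2(CPM + 1) over the 14 libraries for each pair of the 9 genes (both axes), coloured from -1 to 1. Igfbp4 and Igfbp5 have the highest value off the diagonal (0.95), and the row of Igfbp6 is negative off the diagonal over these 14 libraries.

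In Nes-GFP low BMSCs, Igf2 was the only member with a higher mean in AML than in normal mice. The difference did not pass the test after adjustment. Its mean was 29.6 ± 16.9 CPM in AML (SD, n = 4) and 5.78 ± 6.93 CPM in normal libraries (SD, n = 6), a log2 fold change of 2.35 (standard error, SE, 1.05, unadjusted p = 0.0420, edgeR adjusted p = 0.856, quasi-likelihood test, two-sided). The fold change was above 0 in all 21 alternatives, with 1.95 to 3.18. The other 8 members had log2 fold changes from -0.55 (Igfbp7) to -2.43 (Igfbp2). The median of the 9 was -0.99, against 0.00341 over all genes tested. Igf2 was the only member with an unadjusted p under 0.05. No member passed, and the test called 0% of 18152 genes (before adjustment, 480 higher and 526 lower genes had a p under 0.05). DESeq2 called 0.738% of its genes and none of the 8 members for which it gave an adjusted p, and limma voom called none. No member had AML and normal libraries that did not overlap, as 1.11% of all genes did. The summed CAR markers had a median of 3162 CPM in the AML and of 9476 CPM in the normal low libraries, with ranges of 394 to 17140 and 2896 to 52286 CPM. Other marker lists moved too. The 7 osteolineage markers had a median of 2020 CPM in AML (529 to 15835) and of 14005 CPM in normal low libraries (2756 to 26862). The 7 erythroid markers had medians of 56.7 CPM (8.35 to 1912) and 1344 CPM (311 to 2453). Macrophage and monocyte markers, also 7, were higher in AML, with medians of 293 CPM (46.4 to 1240) and 64.9 CPM (6.78 to 827), and so was Ptprc, with 181 CPM (81.8 to 447) and 6.45 CPM (3.95 to 483). The part of these cells in the values of the members was not tested.

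Relative to the summed CAR markers, a scale chosen after the values were seen, Igf2 was 0.285% to 2.72% in the 4 AML low libraries (median 1.09%) and 0.00255% to 0.192% in the 6 normal low libraries (median 0.0138%). These ranges did not overlap, as they did not for 0.865% of all genes on this scale. Igfbp4 was 12.6% to 26.4% in AML and 8.87% to 15.8% in normal libraries, and Igfbp7 was 12.04% to 52.5% and 5.07% to 27.6%. Both pairs of ranges overlapped. Their medians were 19.6% against 12.3% and 38.7% against 11.0%. All 9 members had a higher median in AML on this scale, whose divisor, the summed markers, had a lower median in AML.

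In Nes-GFP high BMSCs, Igf2 and Igfbp2 were the members with both AML libraries above both normal libraries. Igf2 averaged 80.9 ± 50.5 CPM in AML and 20.2 ± 5.93 CPM in normal libraries (SD, n = 2 each), with a log2 fold change of 2.001 (SE 1.68, edgeR adjusted p = 0.735). Igfbp2 averaged 13.8 ± 0.365 and 0.0709 ± 0.1003 CPM, with a log2 fold change of 7.38 (SE 3.54). Igfbp2 had 10 or more counts only in the AML high libraries and in normal low replicate 2, so it passed the filter on low counts through the group where it was high, and its differences that involve this group are given as descriptions. Both genes were above 0 in all alternatives that gave a value, from 1.14 to 2.49 for Igf2 (21 alternatives) and from 6.57 to 10.04 for Igfbp2 (20). Since their libraries did not overlap, leaving out a library could hardly turn the direction, so this agreement is no further support. Of all genes tested, 27.5% had libraries that did not overlap in this comparison. Igf1, with 1.10, and Igfbp7, with 0.29, were also above 0 on the log2 scale, and the other 5 lay between -0.23 (Igfbp4) and -1.26 (Igfbp5). No member passed, and none had an unadjusted p under 0.05. The test called 0% of all genes, and before adjustment 1384 higher and 825 lower genes had a p under 0.05. DESeq2 called 9.9% of the 16184 genes for which it gave an adjusted p and none of 8 members. It gave none for Igfbp2 in any comparison. The CAR markers summed to 1895 and 34019 CPM in AML high and to 8040 and 50731 CPM in normal high replicates 1 and 2. Neutrophil markers summed to 11399 and 2012 CPM and to 28621 and 1099 CPM, in the same order. Osteolineage markers summed to 75393 CPM in normal high replicate 1, against 16541 CPM at most in the other 3 high libraries. The part of these cells was not tested. Without normal high replicate 1, the log2 fold change turned to 2.26 for Igfbp6 and to -0.18 for Igfbp7 and was 0.25 for Igf1, 1.82 for Igf2 and 6.57 for Igfbp2. Without normal high replicate 2, which was the richer one in CAR markers, that of Igf1 was 7.61.

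Between Nes-GFP high and low BMSCs of normal mice, Igf2 was the only member whose libraries did not overlap, at 16.0 and 24.4 CPM against at most 15.3 CPM, as was so for 11.3% of all genes. Its log2 fold change was 1.80 (SE 1.23, edgeR adjusted p = 0.570). Those of Igfbp7 and Igfbp3 were 0.72 and 0.66, and that of Igfbp6 was -1.41. The median over the 9 members was 0.29, with 7 above 0, against -0.27 over all genes. The test called no member and 0% of all genes. At an unadjusted p under 0.05 there were 0 members, and of all genes 382 were higher and 1660 lower. DESeq2 called none of the 8 members it tested and 10.5% of 16583 genes.

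In AML mice, 8 of the 9 members had a higher mean in high than in low BMSCs, with a median log2 fold change of 1.40 against -0.10 over all genes. Igfbp2 was the member whose libraries did not overlap (15.7% of all genes did not), with a log2 fold change of 5.74 (SE 2.39), given as a description. Igf1 followed with 2.40 (SE 1.36, edgeR adjusted p = 0.596) and Igfbp7 with 1.57 (SE 0.849, edgeR adjusted p = 0.589). Igfbp6 alone was lower in the high population, with -1.76 (SE 1.87, edgeR adjusted p = 0.805). The test called no member and 0% of all genes. At an unadjusted p under 0.05 there were 453 higher and 1176 lower genes, and of the members none besides Igfbp2, which is only described. DESeq2, which gave no adjusted p for Igfbp2, called none of the other 8 members and 6.82% of 16184 genes. The comparisons of a population share libraries and are not independent of each other.

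How far the AML effect differed between high and low BMSCs was also fitted. It was 9.81 for Igfbp2 (SE 4.06), given as a description since this gene passed the filter through AML high. It was 2.16 for Igf1 (SE 1.99, edgeR adjusted p = 0.895), and both were higher in the high population. For Igf2 it was -0.35 (SE 1.92, edgeR adjusted p = 0.9999). No member and 0% of all genes passed (before adjustment, 1164 higher and 644 lower genes had a p under 0.05). DESeq2, again without an adjusted p for Igfbp2, called none of the other 8 members and 4.93% of 15786 genes.

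**Figure D5:**
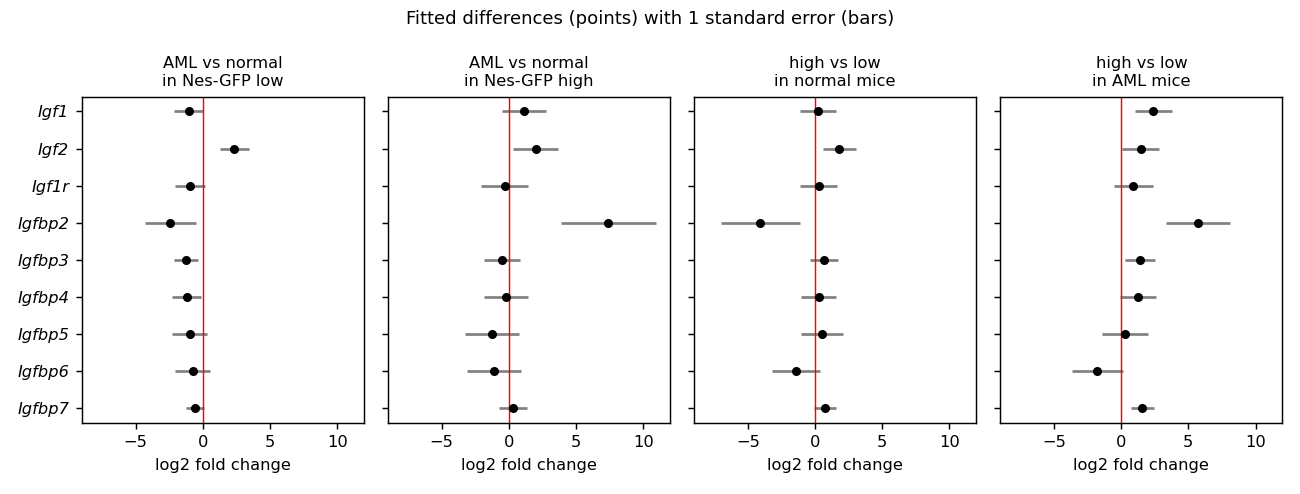
Fitted log2 fold changes (x axis, points) with 1 standard error (bars) for the 9 genes (y axis) in 4 comparisons, from edgeR. Igf2 lies at 2.35 and 2.001 in the comparisons of AML with normal mice, and Igfbp2 has the widest bars, with a standard error of up to 3.54.

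The other genes of the pathway came from a list of 41, of which 40 were in the table and 36 had enough counts to be tested. Growth hormone acts through the receptor Ghr and the kinase Jak2 and induces Igf1, and Socs2 feeds back on this axis. Ghr averaged 253 CPM over the 14 libraries. Htra1, which encodes a protease that cleaves binding proteins, averaged 745 CPM, and the adaptor gene Shc1 averaged 157 CPM. Other carriers were hardly found, with Igfals at 1.64 CPM on average and Igfbpl1 at 0.0737 CPM. The edgeR test called none of the 36 in any comparison, and 5, 2, 4, 5 and 4 of them had an unadjusted p under 0.05 for AML against normal high, AML against normal low, high against low in normal mice, high against low in AML mice, and the difference. Of all genes, 12.2%, 5.54%, 11.2%, 8.97% and 9.96% had such a p. In the same order, 20, 14, 24, 22 and 20 genes lay above 0 and 16, 22, 12, 13 and 16 below, with median log2 fold changes of 0.07, -0.28, 0.69, 0.37 and 0.21. With genes that had no count in 1 group set to their bound, the medians of the 4 comparisons of groups were 0.05, -0.28, 0.75 and 0.37. DESeq2 called 3 of 34 in AML against normal high BMSCs, 0 of 35 in low BMSCs, 3 of 34 between high and low BMSCs of normal mice, 3 of 34 in AML mice, and 2 of 34 for the difference of the AML effect. Of all genes with an adjusted p it called 9.9%, 0.738%, 10.5%, 6.82% and 4.93%, so the counts of the list lay near the background.

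Akt1, a kinase downstream of IGF1R, had the smallest p of the list in the high population. It stood at 0.743 and 3.03 CPM in the AML high libraries and at 139 and 53.8 CPM in the normal high libraries, against 33.8 to 58.5 CPM in AML low and 21.9 to 65.6 CPM in normal low libraries. The AML high libraries were thus the lowest of the 14. The log2 fold change between AML and normal high BMSCs was -5.66 (SE 0.986, edgeR adjusted p = 0.109, DESeq2 adjusted p = 5.77e-11), and between high and low BMSCs of AML mice it was -4.64 (SE 0.905, edgeR adjusted p = 0.254, DESeq2 adjusted p = 4.03e-09). Without normal high replicate 2, the former was -6.24, from a fit with normal high replicate 1 as the only library of its group. Replicate 1 had Nes at 2.27 CPM, within the range of the low libraries. The AML effect differed between high and low BMSCs by -5.81 (edgeR adjusted p = 0.210, DESeq2 adjusted p = 6.02e-08), and without normal high replicate 2 this difference was -6.41.

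Pdpk1, the kinase that activates AKT, was at 0.867 and 116 CPM in the AML high libraries and at 0.378 and 0.993 CPM in the normal high libraries. The AML group mean thus rested on replicate 2, and replicate 1 lay between the normal libraries. The log2 fold change was 6.39 (SE 2.05, edgeR adjusted p = 0.289, DESeq2 adjusted p = 0.00267). Both normal high libraries lay below the 6 normal low libraries (2.25 to 43.2 CPM), with a log2 fold change of -4.93 (edgeR adjusted p = 0.369, DESeq2 adjusted p = 0.00628). Insr and Jak2, named after their values were seen, were also called by DESeq2 and not by edgeR, both of them with lower means in the groups concerned.

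Stc1, which encodes an inhibitor of PAPP-A, had no count in any of the 6 AML libraries. It was at 29.8 and 21.3 CPM in the normal high libraries and at 20.9 CPM in normal low replicate 1, and the other normal low libraries had 0 to 3 counts. Against a floor of 3 counts per library, the level was at least 74.4-fold lower in AML than in normal high BMSCs. In low BMSCs the bound on the means was 10.4-fold, but the normal mean rested on replicate 1 alone, and the normal median was 0.144 CPM. Stc1 had 10 or more counts only in the normal high libraries and normal low replicate 1. It thus passed the filter on low counts through libraries where it was high, and its differences are given as descriptions. Ghr was 4.81 to 106 CPM in AML low and 71.4 to 501 CPM in normal low libraries, with a log2 fold change of -2.05 (SE 0.878, edgeR adjusted p = 0.841). Socs2 was at 169 and 568 CPM in the AML high libraries and at 30.9 to 133 CPM in the AML low libraries. These did not overlap, and the log2 fold change was 2.19 (SE 0.680, edgeR adjusted p = 0.477, DESeq2 adjusted p = 0.0489).

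The genes most like each member were sought among 10760 genes averaging 10 CPM or more, by the Pearson r of log2(CPM + 1) over the 14 libraries. For Igfbp4 the closest were Cxcl12 (0.98), 1500009L16Rik (0.98) and Tnc (0.97), an extracellular matrix protein. For Igfbp5 they were Cp (0.97), which encodes ceruloplasmin, Serping1 (0.97), an inhibitor of complement, and Kng1 (0.97). For Igfbp7 they were Fhl2 (0.98), P3h3 (0.97) and Hmgn3 (0.97), and for Igfbp3 Speg (0.96), Erlec1 (0.90) and Leng8 (0.90). Igfbp6 was closest to Gsn (0.90), which encodes gelsolin, to Thbs4 (0.88) and to Fpr2 (0.87), a formyl peptide receptor. Igf2 was closest to Tagln (0.90), a smooth muscle gene, to Chd9 (0.82) and to Hist3h2a (0.80). Its r with the 8 summed pericyte and smooth muscle markers, which include Tagln, was 0.56 (rho 0.79). Igf1 was closest to Tspan17 (0.93), Dapk1 (0.93) and Abcc5 (0.91), and Igf1r to Klc1 (0.91), Lrrc45 (0.91) and Snx15 (0.88). Igfbp2, with a mean under 10 CPM, was not compared.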

How the data were processed

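RNA of Nes-GFP+ BMSCs was sequenced after Smart-seq2 amplification. Per the labels, the authors' tools were Trim Galore 0.4.1 for trimming, TopHat2 2.1.0 for alignment (build mm10) and featureCounts for counting. The deposited values are raw counts per gene symbol in 16 columns, of which 2 match no sample and were not used. The 13 symbols on 2 rows include no gene named here.

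Groups came from the labels. Genes were tested with the quasi-likelihood F test of edgeR 4.0.16 (R 4.3.3) on 14 libraries in 4 groups, with TMM and filterByExpr (minimum count 10), Benjamini-Hochberg adjusted p under 0.05. All 9 members passed the filter. Igfbp2 had 10 or more counts only in the AML high libraries and in normal low replicate 2. Standard errors are the fold change over the root of F. Alternatives were DESeq2 1.42.0, limma voom (limma 3.58.1) with quality weights, DESeq2 size factors, no filter, a mean of at least 10 CPM, the compared groups alone, a replicate block and each library left out. Exon lengths and positions are from GENCODE M21. Libraries of a group were no copies of each other (chi-square per degree of freedom 91.0 to 393 in 23 pairs). Counting intervals and floors cover counting error only. Tables were made with Python 3.11.15.

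The members, gene lists and tests were chosen with earlier results of these data known. Named beside the members are the 2 pathway genes with the smallest p in each comparison of groups, the 3 genes most like each member, and defining markers; 1 gene that this rule names is not reported here. Igfbp1 was not analysed here.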

Additional observations from a re-analysis of the deposited data

Results flagged for a closer look

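Igfbp2 in normal low replicate 2, at 7.94 CPM, stood apart from the other 5 normal low libraries by Dixon's test, and so did its share of the binding protein transcripts there, at 0.104%. Such a test flags about 1 in 20 groups by chance where values are normally distributed, and 30 were tested. Igfbp2 had no count in 3 of the 6 normal low libraries, so that rate need not hold here. Both flags concern the same gene and library. That library had 84 counts of Igfbp2, its Nes count was 0, and its stromal markers summed to 51372 CPM. Without it, the log2 fold change of Igfbp2 between AML and normal low BMSCs turned from -2.43 to 1.79.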

How the results depend on the processing

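With 2 libraries in each high group, 1 library decided many directions. In AML against normal high BMSCs, leaving out 1 library turned the direction of these members, whose log2 fold change then ran over the following ranges: Igf1 -1.14 to 7.61, Igf1r -1.58 to 11.25, Igfbp3 -1.04 to 0.55, Igfbp4 -3.77 to 1.21, Igfbp5 -4.34 to 2.36, Igfbp6 -2.08 to 2.26, Igfbp7 -0.59 to 1.27. In low BMSCs, they were Igfbp2 -3.96 to 1.79, Igfbp6 -1.87 to 0.14. Between high and low BMSCs of normal mice, they were Igf1 -6.26 to 1.06, Igf1r -11.30 to 1.12, Igfbp2 -6.72 to 0.14, Igfbp3 -0.41 to 1.23, Igfbp4 -1.14 to 0.83, Igfbp5 -3.07 to 1.31, Igfbp7 -0.25 to 1.16. In AML mice, they were Igf1r -0.35 to 1.55, Igfbp4 -2.23 to 2.29, Igfbp5 -2.79 to 1.94. For the difference of the AML effect, they were Igf1 -0.0671 to 8.68, Igf2 -1.20 to 0.15, Igf1r -0.64 to 12.19, Igfbp4 -2.53 to 2.44, Igfbp5 -3.34 to 3.36, Igfbp6 -1.30 to 3.10, Igfbp7 -0.0318 to 1.83. A lone library left in a group is assumed to vary like the others. Values of Igf1r above 11 in size set a group with no count against another and depend on the prior count. No member passed under any alternative that tested it. Of the pathway genes, leaving out 1 library gave 0 to 1 calls in AML against normal high BMSCs and for the difference of the AML effect, and DESeq2 gave 3 in the former, 3 between high and low BMSCs of normal mice, 3 in AML mice and 2 for the difference. The causes were not tested.

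With limma voom, log2 fold changes turned to 3.52 (Igf1r, AML against normal high), 0.23 (Igfbp2, low), -1.88 and -3.77 (Igf1 and Igf1r, high against low in normal mice), and 0.77 and 0.95 (Igfbp5 and Igfbp6, difference). Without division by exon length, 3 members kept their place in the order of levels in AML high and 3 in normal high, and the mean share of Igfbp7 was 59.6%, 44.0%, 38.2% and 32.8%, by construction, since lengths differ. Leaving out 1 library, 4 to 9 members kept their place in AML high and 3 to 5 in normal high.

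Same-numbered libraries deviated together in 4 of 14 pairs only (r from -0.16 to 0.43, limit 0.1). Both libraries of a high group deviate from their mean by opposite amounts, so these pairs are not independent of each other. Pairs of a high with a low library had r of -0.164 and -0.105 in AML and of -0.149 and 0.185 in normal mice. The other pairs cross AML with normal mice, and differently numbered pairs were not compared. Whether the numbers pair the samples is therefore not settled. With the replicate block no member was called, and these turned: Igfbp6 in AML against normal low BMSCs to 0.22; between high and low BMSCs of normal mice Igf1 to -1.92, Igfbp3 to -0.73, Igfbp4 to -1.14, Igfbp5 to -1.65, Igfbp6 to 2.22 and Igfbp7 to -0.28; in AML mice Igfbp4 to -0.18, Igfbp5 to -1.78 and Igfbp6 to 0.16. All other fold changes of members kept their direction (593 of 630 with 1 library left out, 283 of 299 in the other settings). Igfbp2 had no value with the mean of at least 10 CPM, nor with the compared groups alone in low BMSCs and in normal mice, and DESeq2 gave it no adjusted p. Igf2 kept its direction in the 4 comparisons of groups under every alternative run. In AML against normal high BMSCs and between high and low BMSCs of normal mice its libraries did not overlap. There, leaving out a library could hardly turn the direction.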
